A study of Mus musculus with 6 samples.

Results

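Interferon response genes are the genes that cells switch on when interferon, or the viral RNA and DNA that provoke it, is sensed. The 41 genes described here are a set chosen by name from the 23282 genes counted. By role they are 4 regulators, 5 RNA sensors, 16 antiviral effectors, 2 genes of the ISG15 system, 6 interferon-inducible GTPases, 4 genes of the PARP family and a partner, and 4 genes of antigen processing and chemotaxis. All 41 symbols matched a gene number in the files, and all 41 passed the expression filter of the tests in MLL-AF9 cells.

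The 9 libraries came from 6 samples of mouse blood-forming cells of a mixed 129/Sv and C57BL/6 strain, read as RNA counts per gene. MLL-AF9, a fusion oncogene of leukaemia, transforms marrow cells so that they keep growing in culture, and Mll4 (Kmt2d) encodes a histone methyltransferase that marks enhancers. In a first transformation, marrow with a floxed Mll4 allele and the MxCre transgene received MLL-AF9 by retrovirus. It was then infected with a Cre retrovirus carrying Tomato Red (2 libraries labelled Mll4 deleted, called the Cre libraries) or with the empty Tomato Red vector (2 libraries, Mll4 intact, called the intact libraries). Cells positive for GFP and Tomato Red were sorted 5 days after that infection. In a second transformation, marrow labelled MLL4-/- received MLL-AF9-neo together with a FOXO3-IRES-GFP retrovirus (2 libraries, the FOXO3 libraries) or an empty vector (1 library, the EV library). Its GFP-positive cells were sorted a week after selection in G418. All MLL-AF9 cells had 14 days of growth. LSK cells (negative for lineage markers, positive for Sca1 and c-Kit, and rich in stem and progenitor cells) were sorted from littermates of 2 months, 1 labelled Mll4 deleted (MLL4f/f MxCre+) and 1 wild type (WT MxCre+), with about 50 cells per library. Both LSK donors had been given polyIC, a double-stranded RNA mimic that induces interferon, and the Mx1 promoter that drives this Cre is itself interferon-inducible. The time between polyIC and the sort is not given in the sources used here.

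Interferons bind receptors at the cell surface, which act through JAK kinases on transcription factors of the STAT family. STAT2 and IRF9 are parts of a complex that binds a DNA element known as the interferon-stimulated response element (ISRE), whereas the gamma-activated sequence (GAS) is bound by pairs of STAT proteins. IRF7, itself induced, amplifies the response, and in blood-forming stem cells interferon is known to drive resting cells into the cell cycle.

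The promoters of the genes on which the results turn are shown first, as RefSeq gives them for GRCm38.p6, with matches to the ISRE core (GAAA, then 2 bases of any kind, then GAAA) in capitals on either strand. Isg15, Ifit1 and Rsad2 stand for genes that differed between the transformations. Ifit2 overlapped between the transformations, and Oas1a and Oas1g were highest in the FOXO3 libraries. Each sequence runs 5′ to 3′ along the gene's strand toward its start. Isg15 lies at chr4:156200819-156200948 (minus strand), Ifit1 at chr19:34640759-34640888 (plus), Rsad2 at chr12:26456453-26456582 (minus), Ifit2 at chr19:34550564-34550693 (plus), Oas1a at chr5:120907526-120907655 (minus) and Oas1g at chr5:120887614-120887743 (minus).
Isg15: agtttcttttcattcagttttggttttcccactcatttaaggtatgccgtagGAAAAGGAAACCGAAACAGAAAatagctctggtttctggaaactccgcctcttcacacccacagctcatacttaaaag
Ifit1: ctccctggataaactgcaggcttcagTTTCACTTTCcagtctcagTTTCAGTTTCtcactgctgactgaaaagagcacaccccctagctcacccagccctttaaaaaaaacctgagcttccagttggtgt
Rsad2: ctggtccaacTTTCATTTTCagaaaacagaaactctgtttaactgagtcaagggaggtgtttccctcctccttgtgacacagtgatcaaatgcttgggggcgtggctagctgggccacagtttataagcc
Ifit2: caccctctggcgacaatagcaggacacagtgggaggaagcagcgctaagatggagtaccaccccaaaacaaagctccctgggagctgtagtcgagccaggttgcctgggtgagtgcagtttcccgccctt
Oas1a: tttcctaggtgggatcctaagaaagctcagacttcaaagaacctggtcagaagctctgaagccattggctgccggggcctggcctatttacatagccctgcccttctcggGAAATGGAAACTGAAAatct
Oas1g: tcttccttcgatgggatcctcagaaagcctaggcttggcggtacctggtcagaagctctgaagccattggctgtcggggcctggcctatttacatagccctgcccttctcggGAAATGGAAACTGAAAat

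The Isg15 stretch held 3 matches that overlap one another, Ifit1 held 2 apart from each other, and Rsad2 held 1. Oas1a and Oas1g carried 2 overlapping matches each, close to the gene's start. The Ifit2 stretch held 0, which says only that these letters are not in this window. Of the 41 genes, 32 had a promoter in the table. Within 250 bases before the start, 15 of the 32 (46.9%) held the ISRE core on either strand, as did 3.46% of 27025 genes. The GAS motif TTCNNNGAA was found in 8 of the 32 (25%) and in 8.13% of all genes. The forkhead motif GTAAACA, which FOXO factors can bind, was found in 2 of the 32 (Gbp3 and Rsad2, 6.25%) and in 3.54% of all genes. These matches describe letters, not binding, and a promoter can hold more than 1 of the motifs.

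Library totals ran from 25895041 to 61950773 counts, and levels are given as CPM, counts scaled to the same total in each library, which are not adjusted for gene length. Kmt2d stood at 95.6 and 73.7 CPM in the Cre libraries, 79.5 and 61.7 CPM in the intact libraries, 102 and 115 CPM in the FOXO3 libraries and 116 CPM in the EV library. In LSK cells it was at 13.9 CPM in the library labelled Mll4 deleted, higher than the 1.88 CPM of the wild type one, against the label. Counts over a whole gene do not check a deletion of some exons, so each direction given for Mll4 rests on the labels. Foxo3 stood at 1292 and 1309 CPM in the FOXO3 libraries, against 27.3 CPM in the EV library. Xist marked Cre library 1 and intact library 2 (771 and 687 CPM), and the Y-linked Ddx3y marked the other library of each pair, so both pairs held cells of either sex. The chi-square of counts per degree of freedom was 191 between the Cre libraries, 146 between the intact libraries and 1.97 between the FOXO3 libraries. The FOXO3 libraries were therefore summed and counted as 1 sample in the tests. The labels do not name separate cultures behind the libraries of a sample, so a p-value reflects the spread between libraries alone. In the Cre and intact pairs, which give that spread, the libraries of a pair differ in sex, so it is not only technical.

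Across the 7 MLL-AF9 libraries the interferon response genes were low in the second transformation. Of the 41 genes, 15 lay under 1 CPM in each FOXO3 library and 11 in the EV library, against 1 (Ifi44) in each Cre and each intact library. Of all genes tested, 22.7% and 22.5% lay under 1 CPM in the FOXO3 libraries, 20.6% in the EV library and 16.9% to 18.6% in the Cre and intact ones. In CPM, a gene's highest library was an intact one for 21 genes, a Cre one for 14, a FOXO3 one for 5 and the EV library for 1. Its lowest was a FOXO3 library for 29 genes, the EV library for 10, an intact library for 2 and a Cre library for 0. Over all 14990 genes tested, the highest library was an intact one in 22.2%, a Cre one in 24.8%, a FOXO3 one in 31.5% and the EV library in 21.4%. The lowest library of all genes was a FOXO3 one in 23.3%, the EV library in 12.9%, an intact one in 49.0% and a Cre one in 14.8%. After the TMM scaling used in the tests, all 4 libraries of the first transformation lay above all 3 of the second for 32 of the 41 genes (78.0%). They lay below them for 0 of the 41. Of all genes tested, 25.4% lay above in this way and 23.9% below. The 9 genes that overlapped were Ifit2, Oas1a, Oas1g, Ifih1, Ifi47, Dtx3l, Xaf1, Eif2ak2 and Psmb8. In a bulk sample, fewer cells that express a gene and less RNA per cell cannot be told apart.

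**Figure D1:**
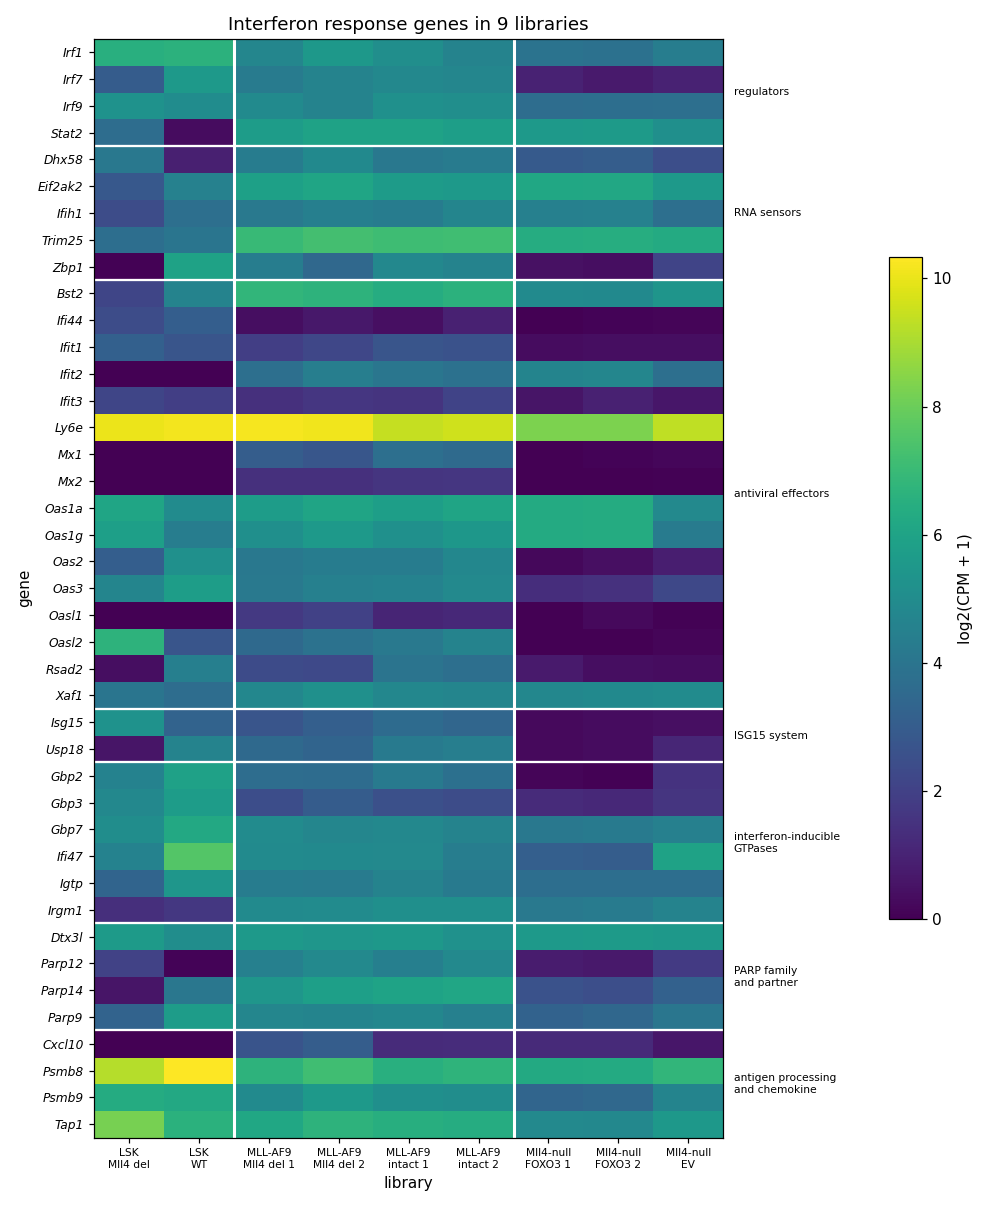
Level of each of the 41 genes (rows, by role) in the 9 libraries (columns), coloured by log2(CPM + 1); white lines separate roles and the LSK, first and second MLL-AF9 transformations, and Mll4 del marks libraries labelled Mll4 deleted. Dark cells are most frequent in the last 3 columns, where 11 to 15 of the 41 genes lie under 1 CPM. The LSK columns hold 9 (Mll4 del) and 8 (WT) such genes, and each Cre and intact column holds 1.

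The regulators split by gene. Irf7 stood at 18.7 and 23.8 CPM in the Cre libraries, 27.4 and 25.5 in the intact, 0.998 and 0.691 in the FOXO3 and 1.01 in the EV library. Irf9, the DNA-binding partner of the STATs, stood at 30.0 and 23.8 CPM in the Cre libraries, 35.5 and 33.6 in the intact, 11.9 and 12.2 in the FOXO3 and 12.7 in the EV library. Both were lower in all 3 libraries of the second transformation than in any of the first, Irf7 by far more. Stat2 varied less, at 50.9 and 60.4 CPM in the Cre libraries, 60.9 and 54.4 in the intact, 46.9 and 49.1 in the FOXO3 and 34.3 in the EV library. Irf1, which interferon gamma induces strongly, stood at 25.4 and 44.7 CPM in the Cre libraries, 33.6 and 23.6 in the intact, 14.3 and 13.5 in the FOXO3 and 19.9 in the EV library. The Cre and intact libraries overlapped for Stat2 and for Irf1.

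The ISG15 system attaches the ubiquitin-like protein Isg15 to other proteins and, through Usp18, removes it and dampens the interferon receptor. Isg15 stood at 5.52 and 7.69 CPM in the Cre libraries, 11.4 and 9.60 in the intact, 0.189 and 0.267 in the FOXO3 and 0.343 in the EV library. Usp18 stood at 10.5 and 9.14 CPM in the Cre libraries, 17.9 and 20.6 in the intact, 0.216 and 0.267 in the FOXO3 and 1.16 in the EV library. Both genes were lower in the Cre than in the intact libraries without overlap, and lower again in the second transformation.

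Among the RNA sensors, Zbp1, which senses Z-form nucleic acid, stood at 19.9 and 10.1 CPM in the Cre libraries, 27.1 and 23.8 in the intact, 0.378 and 0.312 in the FOXO3 and 3.29 in the EV library. Dhx58 (LGP2), a helicase that assists Ifih1, stood at 19.1 and 28.8 CPM in the Cre libraries, 16.6 and 18.6 in the intact, 6.63 and 7.20 in the FOXO3 and 4.59 in the EV library. Trim25, a ubiquitin ligase, stood at 123 and 150 CPM in the Cre libraries, 140 and 142 in the intact, 84.0 and 85.1 in the FOXO3 and 78.3 in the EV library. These 3 were lower in the second transformation without overlap. Ifih1 (MDA5), a sensor of long double-stranded RNA, ran from 12.5 CPM in the EV library to 24.9 CPM in intact library 2. Eif2ak2 (PKR), a kinase that halts translation, ran from 46.7 CPM in the EV library to 71.8 CPM in FOXO3 library 2. For both, the transformations overlapped.

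The antiviral effectors held the steepest differences. Rsad2 (viperin), which makes a chain-terminating nucleotide, stood at 4.16 and 3.91 CPM in the Cre libraries, 14.6 and 12.8 in the intact, 0.674 and 0.312 in the FOXO3 and 0.286 in the EV library. Ifit1, which binds foreign RNA ends, stood at 2.82 and 3.63 CPM in the Cre libraries, 5.57 and 5.11 in the intact, 0.270 and 0.290 in the FOXO3 and 0.305 in the EV library. For both the order was intact, then Cre, then the second transformation, with no overlap between these 3. The GTPase gene Mx1, an inhibitor of influenza virus, stood at 7.30 and 5.71 CPM in the Cre libraries, 12.6 and 11.1 in the intact, 0 and 0.0668 in the FOXO3 and 0.133 in the EV library. Its relative Mx2 stood at 1.68 and 1.70 CPM in the Cre libraries, 2.06 and 2.12 in the intact, 0 and 0.0223 in the FOXO3 and 0.0571 in the EV library. Both Mx genes were thus near 0 in the second transformation.

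The Oas genes make or relate to 2′-5′ oligoadenylate, which activates the nuclease RNase L. Oas2 stood at 16.8 and 19.2 CPM in the Cre libraries, 19.0 and 26.8 in the intact, 0.162 and 0.334 in the FOXO3 and 0.800 in the EV library. Oas3 stood at 16.9 and 21.3 CPM in the Cre libraries, 22.8 and 27.8 in the intact, 1.54 and 1.74 in the FOXO3 and 3.69 in the EV library. Oasl2 stood at 10.5 and 14.0 CPM in the Cre libraries, 17.2 and 23.9 in the intact, 0.0270 and 0.0223 in the FOXO3 and 0.0952 in the EV library. In these 3 genes the first transformation lay above the second throughout. Oasl1, which in mice restrains Irf7 translation, stood at 2.28 and 3.03 CPM in the Cre libraries, 1.10 and 1.31 in the intact, 0.0270 and 0.201 in the FOXO3 and 0.0381 in the EV library. It was higher in the Cre than in the intact libraries.

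Oas1a and Oas1g, whose promoters share their matches above, ran another way. Oas1a stood at 51.5 and 65.1 CPM in the Cre libraries, 54.8 and 64.7 in the intact, 79.5 and 80.3 in the FOXO3 and 27.9 in the EV library. Oas1g stood at 34.3 and 47.0 CPM in the Cre libraries, 35.6 and 43.3 in the intact, 79.3 and 80.5 in the FOXO3 and 18.5 in the EV library. Both were highest in the FOXO3 libraries and lowest in the EV library. They are near copies: 57.6% of the 50-base stretches of the Oas1a transcript also occur in other genes, almost all in Oas1g, and 54.7% of those of Oas1g, so reads can be assigned to either and their values are not independent.

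Bst2 (tetherin), which holds budding virus at the membrane, stood at 111 and 100.5 CPM in the Cre libraries, 82.8 and 98.1 in the intact, 29.4 and 28.7 in the FOXO3 and 40.4 in the EV library. Ly6e, a surface protein anchored by a lipid, stood at 1158 and 1111 CPM in the Cre libraries, 677 and 764 in the intact, 314 and 312 in the FOXO3 and 645 in the EV library. In CPM both were higher in the Cre than in the intact libraries. Ifit2, a sister of Ifit1, stood at 12.5 and 20.5 CPM in the Cre libraries, 15.7 and 13.6 in the intact, 24.6 and 25.6 in the FOXO3 and 12.5 in the EV library. Ifit2 was thus highest in the FOXO3 libraries while Ifit1 was near its lowest there. Ifit3, of whose transcript 51.2% is shared with other genes, ran from 0.512 CPM in FOXO3 library 1 to 3.23 CPM in intact library 2. Ifi44 was under 1 CPM in all 7 libraries, and Xaf1, a partner of the apoptosis inhibitor XIAP, ran from 25.1 CPM in intact library 2 to 35.2 CPM in Cre library 2.

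**Figure D2:**
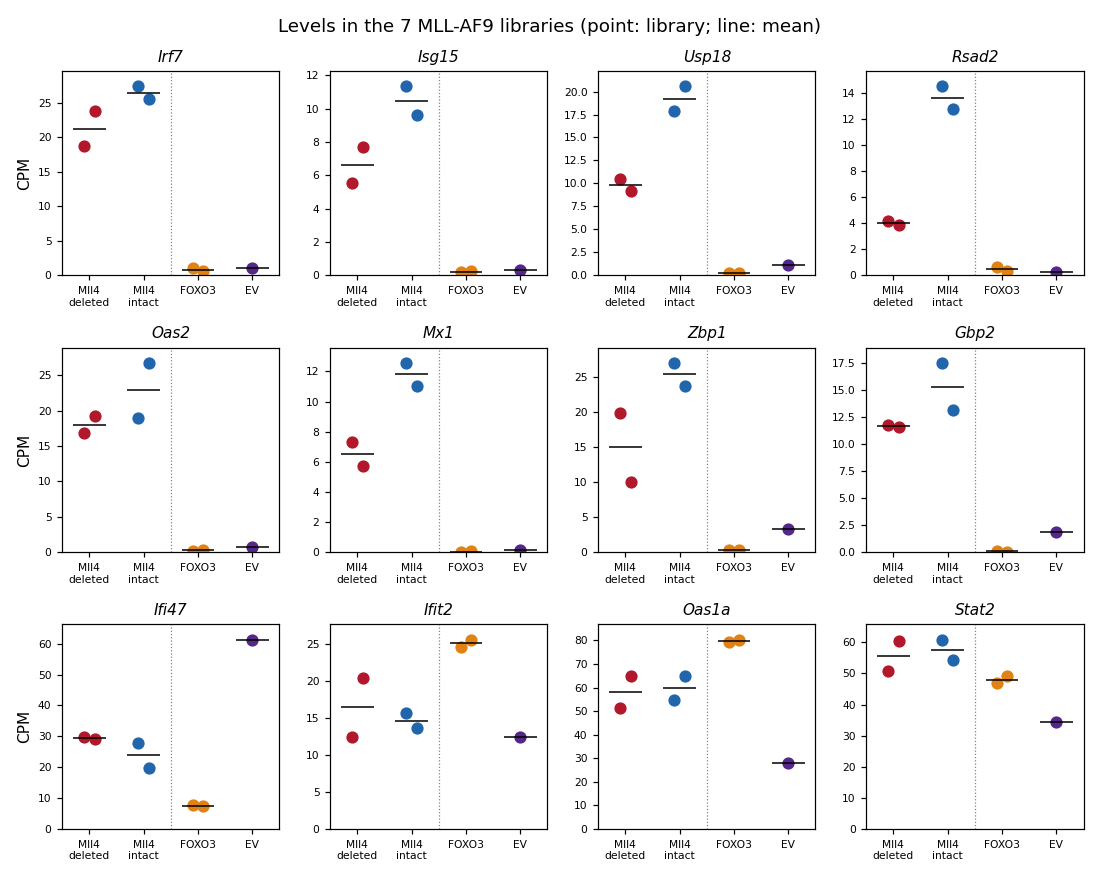
CPM of 12 of the genes in the 7 MLL-AF9 libraries; each point is a library, the black line is the mean of its group, the dotted line separates the first transformation (Mll4 deleted, the Cre libraries, and Mll4 intact) from the second (FOXO3 and EV), and each axis starts at 0. Irf7, Isg15, Usp18, Rsad2, Oas2, Mx1, Zbp1 and Gbp2 lie at 3.29 CPM or less in all 3 libraries of the second transformation, while Ifit2 and Oas1a are highest in the FOXO3 libraries and Ifi47 in the EV library.

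The interferon-inducible GTPases act on membranes around intracellular microbes. Gbp2 stood at 11.8 and 11.6 CPM in the Cre libraries, 17.5 and 13.1 in the intact, 0.108 and 0.0446 in the FOXO3 and 1.85 in the EV library. Ifi47 stood at 29.7 and 29.0 CPM in the Cre libraries, 27.9 and 19.9 in the intact, 7.71 and 7.31 in the FOXO3 and 61.3 in the EV library. Ifi47 was the 1 gene of the 41 whose highest library was the EV one. Gbp3 stood at 4.47 and 7.0 CPM in the Cre libraries, 4.78 and 4.28 in the intact, 1.40 and 1.29 in the FOXO3 and 2.02 in the EV library. Irgm1, which guards the other GTPases of its family, stood at 29.7 and 30.3 CPM in the Cre libraries, 34.8 and 34.1 in the intact, 17.3 and 18.4 in the FOXO3 and 23.5 in the EV library. Igtp stood at 19.3 and 18.5 CPM in the Cre libraries, 23.3 and 17.6 in the intact, 12.4 in both FOXO3 and 12.5 in the EV library. These 3 were lower in the second transformation without overlap, by less than Gbp2. Gbp7 ran from 16.7 CPM in FOXO3 library 1 to 30.2 CPM in Cre library 1.

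The PARP genes encode enzymes that transfer ADP-ribose. Parp12 stood at 21.9 and 28.1 CPM in the Cre libraries, 20.9 and 28.0 in the intact, 0.728 and 0.646 in the FOXO3 and 2.38 in the EV library. Parp14 stood at 42.5 and 55.4 CPM in the Cre libraries, 62.9 and 68.2 in the intact, 5.02 and 4.61 in the FOXO3 and 8.32 in the EV library. Parp9 stood at 25.6 and 24.0 CPM in the Cre libraries, 26.8 and 21.7 in the intact, 8.52 and 9.85 in the FOXO3 and 15.8 in the EV library. All 3 were lowest in the FOXO3 libraries. Dtx3l, the ubiquitin ligase that pairs with Parp9 and whose gene overlaps it, stayed between 36.4 CPM in intact library 2 and 49 CPM in FOXO3 library 2.

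Of the antigen processing genes, Tap1, a peptide transporter, stood at 70.6 and 102 CPM in the Cre libraries, 88.7 and 82.7 in the intact, 27.9 and 27.2 in the FOXO3 and 44.1 in the EV library. Psmb9, an immunoproteasome subunit, stood at 29.4 and 47.5 CPM in the Cre libraries, 34.4 and 32.7 in the intact, 9.36 and 10.4 in the FOXO3 and 24.4 in the EV library. Both were lowest in the FOXO3 libraries, and the Cre libraries spanned the intact ones. Psmb8, another subunit, ran from 77.2 CPM in FOXO3 library 1 to 141 CPM in Cre library 2. Cxcl10, a chemokine that draws T cells, stood at 5.49 and 7.16 CPM in the Cre libraries, 1.43 and 1.52 in the intact, 1.32 and 1.31 in the FOXO3 and 0.533 in the EV library. Cxcl10 was high in the Cre libraries alone, without overlap with the other 5.

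Mll4 loss was examined by setting the Cre libraries against the intact ones. Of the 41 genes, Rsad2 fell, to 4.04 ± 0.180 CPM in the Cre libraries, against 13.7 ± 1.28 CPM in the intact ones (SD, n = 2 each). On the log2 scale it changed by −1.96 ± 0.25 (SE, adjusted p = 0.0484). This and every other adjusted p below, unless another tool is named, comes from edgeR's quasi-likelihood test, adjusted by Benjamini-Hochberg over 14990 genes. No other gene of the 41 passed, so 0 rose and 1 fell, where 2.08% of all genes passed, 1.23% higher and 0.854% lower. By DESeq2 1 (Cxcl10) was higher and 4 lower, where 13.9% of all genes passed, 7.16% higher and 6.71% lower. At an unadjusted p under 0.05 there were 12 of the 41, beside 3701 of the 14990.

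The next smallest p-values belonged to Cxcl10 (log2 fold change 1.89 ± 0.35, adjusted p = 0.064), Usp18 (−1.19 ± 0.24, adjusted p = 0.0721) and Mx1 (−1.07 ± 0.26, adjusted p = 0.0951). Oasl2 (−0.97 ± 0.30), Parp14 (−0.63 ± 0.20), Isg15 (−0.87 ± 0.29) and Irf9 (−0.57 ± 0.19) had adjusted p values of 0.143 to 0.16. None of these 7 passed the test. Of the 41 estimates 30 were negative and 11 positive, with a median of −0.26, where the median of all genes was 0.04. Under total-count scaling 19 were positive and the medians moved to −0.05 for the 41 genes and 0.24 for all genes. All genes that passed then split into 936 higher and 205 lower, and under RLE scaling into 9 and 25 and under upper quartile scaling into 99 and 113, against 184 and 128 here. By role, 12 of 16 antiviral effectors (median −0.54), both genes of the ISG15 system, 3 of 4 regulators (median −0.39), 3 of 5 RNA sensors, 4 of 6 GTPases, 4 of 4 PARP genes (median −0.18) and 2 of 4 antigen processing genes were below 0. After TMM scaling, 21 of the 41 genes had both Cre libraries below both intact ones and 3 had them above, where 25.8% and 31.1% of all genes did. Irf7 (−0.52 ± 0.21, adjusted p = 0.213), Stat2 (−0.26 ± 0.16, adjusted p = 0.388) and Irf1 (0.10 ± 0.32, adjusted p = 0.88) did not pass.

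The Rsad2 call ended without intact library 1 (adjusted p = 0.291) or 2 (adjusted p = 0.267), with RLE scaling (adjusted p = 0.0529), in the 4 compared libraries alone (adjusted p = 0.0518) and with a block that paired libraries of the same sex (adjusted p = 0.144). Its log2 fold change stayed between −2.05 and −1.96 in these. With the FOXO3 libraries kept as 2, Rsad2 fell together with Ifit1, Irf9, Irgm1, Parp14 and Usp18 and Cxcl10 rose, where 14.9% of all genes passed, 7.97% higher and 6.94% lower. Markers of other myeloid cells moved with the same contrast. The 10 monocyte and macrophage markers summed to 6556 and 12766 CPM in the Cre libraries, against 24298 and 34536 CPM in the intact ones, with Itgax and Clec7a lower by the test and no marker at 0. Most of each sum was Lyz2, at 3416 and 8534 CPM in the Cre libraries, against 19157 and 28578 CPM in the intact ones (−2.22 ± 0.53, adjusted p = 0.0904). Ccr2 of the same list lay the other way, at 898 and 481 CPM in the Cre libraries, against 221 and 256 CPM in the intact ones (1.31 ± 0.34, adjusted p = 0.105). The 8 neutrophil lineage markers summed to 18140 and 23289 CPM in the Cre libraries, against 10167 and 5791 CPM in the intact ones, with Elane, Prtn3, Ctsg and Camp higher by the test. Of these 8 markers, 7 had positive estimates and 1 a negative one. Ltf of that list overlapped, at 484 and 381 CPM in the Cre libraries, against 737 and 323 CPM in the intact ones. So did S100a9, at 4036 and 5238 CPM in the Cre libraries, against 5202 and 2055 CPM in the intact ones. The part of all these markers in the levels of the interferon response genes was not tested.

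FOXO3 expression was examined in the second transformation, with 1 sample in each group and the spread taken from the Cre and intact libraries. The GTPase genes Gbp2 and Ifi47 fell. For Gbp2 there were 4 and 2 counts in the FOXO3 libraries, against 97 in the EV library. Gbp2 had 0.108 and 0.0446 CPM in the FOXO3 libraries, against 1.85 CPM in the EV library (log2 fold change −4.62 ± 0.43, adjusted p = 0.0297). Ifi47 had 7.71 and 7.31 CPM in the FOXO3 libraries, against 61.3 CPM in the EV library (−3.04 ± 0.29, adjusted p = 0.0297). Of the 41 genes 0 rose and these 2 fell, where 1.19% of all genes passed, 0.213% higher and 0.974% lower. By DESeq2 2 were higher and 7 lower, where 7.04% of all genes passed, 1.97% higher and 5.07% lower. At an unadjusted p under 0.05 there were 16 of the 41, beside 2018 of the 14990.

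The genes next in order lay on both sides. Oas1g (2.11 ± 0.35, adjusted p = 0.0739) and Oas1a (1.52 ± 0.30, adjusted p = 0.106) had positive estimates that did not pass. Usp18 (−2.24 ± 0.39, adjusted p = 0.082), Zbp1 (−3.27 ± 0.58, adjusted p = 0.0829), Parp12 (−1.80 ± 0.43, adjusted p = 0.151) and Ly6e (−1.05 ± 0.28, adjusted p = 0.197) had negative ones that did not pass. The regulators Irf7 (−0.29 ± 0.33), Irf9 (−0.08 ± 0.27), Stat2 (0.48 ± 0.23) and Irf1 (−0.53 ± 0.45) had adjusted p values of 0.478 to 0.971. Of the 41 estimates 28 were negative, with a median of −0.48, where the median of all genes was 0.00. All 6 GTPases were at or below −0.01, and 4 of 5 RNA sensors were positive, with a median of 0.59.

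Both calls ended without intact library 1 (adjusted p = 0.127 for Gbp2 and 0.118 for Ifi47) or 2 (0.14 and 0.128), although the log2 fold changes stayed at −4.64 and −3.06. They also ended with the block that paired Cre and intact libraries of the same sex (adjusted p = 0.089 for both), with log2 fold changes of −4.62 and −3.04. With the FOXO3 libraries kept as 2, Gbp2, Ifi47, Ly6e, Parp12, Parp9, Psmb9, Usp18 and Zbp1 fell and Oas1a and Oas1g rose, where 7.13% of all genes passed, 2.20% higher and 4.93% lower. The monocyte and macrophage markers summed to 482 and 486 CPM in the FOXO3 libraries, against 941 CPM in the EV library, with Itgax and Mrc1 lower by the test, 8 of the 10 estimates negative, and Itgam and Cd14 at 0.18 and 0.92. The 5 erythroid markers summed to 1.1 and 0.85 CPM in the FOXO3 libraries, against 24.6 CPM in the EV library. Of these, Klf1 (−4.25 ± 0.63, adjusted p = 0.059) and Epor (−4.30 ± 0.74, adjusted p = 0.0789) did not pass. Cd34, a progenitor marker, stood at 8.58 and 8.0 CPM in the FOXO3 libraries, against 89.4 CPM in the EV library (−3.44 ± 1.0, adjusted p = 0.227). Of the 8 LSK stem and progenitor markers, which include Cd34, 3 had positive and 5 negative estimates. They summed to 205 and 211 CPM in the FOXO3 libraries, against 225 CPM in the EV library. Kit of that list lay the other way from Cd34, at 181 and 186 CPM in the FOXO3 libraries, against 112 CPM in the EV library. The part of these markers in the differences was not tested.

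The 2 kinds of Mll4-deleted MLL-AF9 cells were then compared, the Cre libraries against the EV library, both without the FOXO3 retrovirus. Here 17 of the 41 genes rose in the Cre libraries and 0 fell, where 6.97% of all genes passed, 5.90% higher and 1.07% lower. Irf7 stood at 21.3 ± 3.65 CPM in the Cre libraries (SD, n = 2), against 1.01 CPM in the EV library (log2 fold change 4.52 ± 0.34, adjusted p = 0.0148). Isg15 stood at 6.61 ± 1.54 CPM in the Cre libraries, against 0.343 CPM in the EV library (4.39 ± 0.46, adjusted p = 0.0185). Rsad2 stood at 4.04 ± 0.180 CPM in the Cre libraries, against 0.286 CPM in the EV library (3.94 ± 0.38, adjusted p = 0.0166).

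By role, 9 of 16 antiviral effectors rose. Oasl2 (log2 fold change 7.10 ± 0.60), Mx1 (5.71 ± 0.47), Oas2 (4.62 ± 0.45), Ifit1 (3.52 ± 0.50), Oas3 (2.50 ± 0.35) and Bst2 (1.52 ± 0.24) rose with adjusted p values of 0.0155 to 0.0335. The values of Oasl2 and Mx1 rest on 5 and 7 counts in the EV library. Oasl1 and Mx2 also rose, and for their 2 and 3 counts in the EV library the plain ratio was 66.4-fold for Oasl1 (95% exact binomial interval 18.2 to 552) and 29.5-fold for Mx2 (9.92 to 145). These intervals, like all others here, cover counting error only.

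Both genes of the ISG15 system rose, with Usp18 at 3.2 ± 0.35. Of the other roles, 1 of 4 regulators (Irf7), 1 of 5 RNA sensors (Dhx58, 2.51 ± 0.39), 1 of 6 GTPases (Gbp2, 2.79 ± 0.32), 2 of 4 PARP genes (Parp12, 3.52 ± 0.41, and Parp14, 2.69 ± 0.29) and 1 of 4 antigen processing genes (Cxcl10, 3.69 ± 0.51) rose. Irf9 (1.21 ± 0.25, adjusted p = 0.054) and Zbp1 (2.32 ± 0.49, adjusted p = 0.0563) did not pass, nor did Stat2 (0.83 ± 0.20, adjusted p = 0.0787) or Irf1 (0.95 ± 0.41, adjusted p = 0.206). The median over the 41 genes was 1.52, where that of all genes was 0.05, and Ifi47 (−0.93 ± 0.22, adjusted p = 0.0744) had the 1 negative estimate. The median of all genes stayed within 0.1 of this under the other scalings except with total counts, where it was −0.08 and that of the 41 genes 1.39. Of the 17 genes that rose, 7 of the 11 with a promoter in the table held the ISRE core, as did 8 of 21 among the 24 others.

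**Figure D3:**
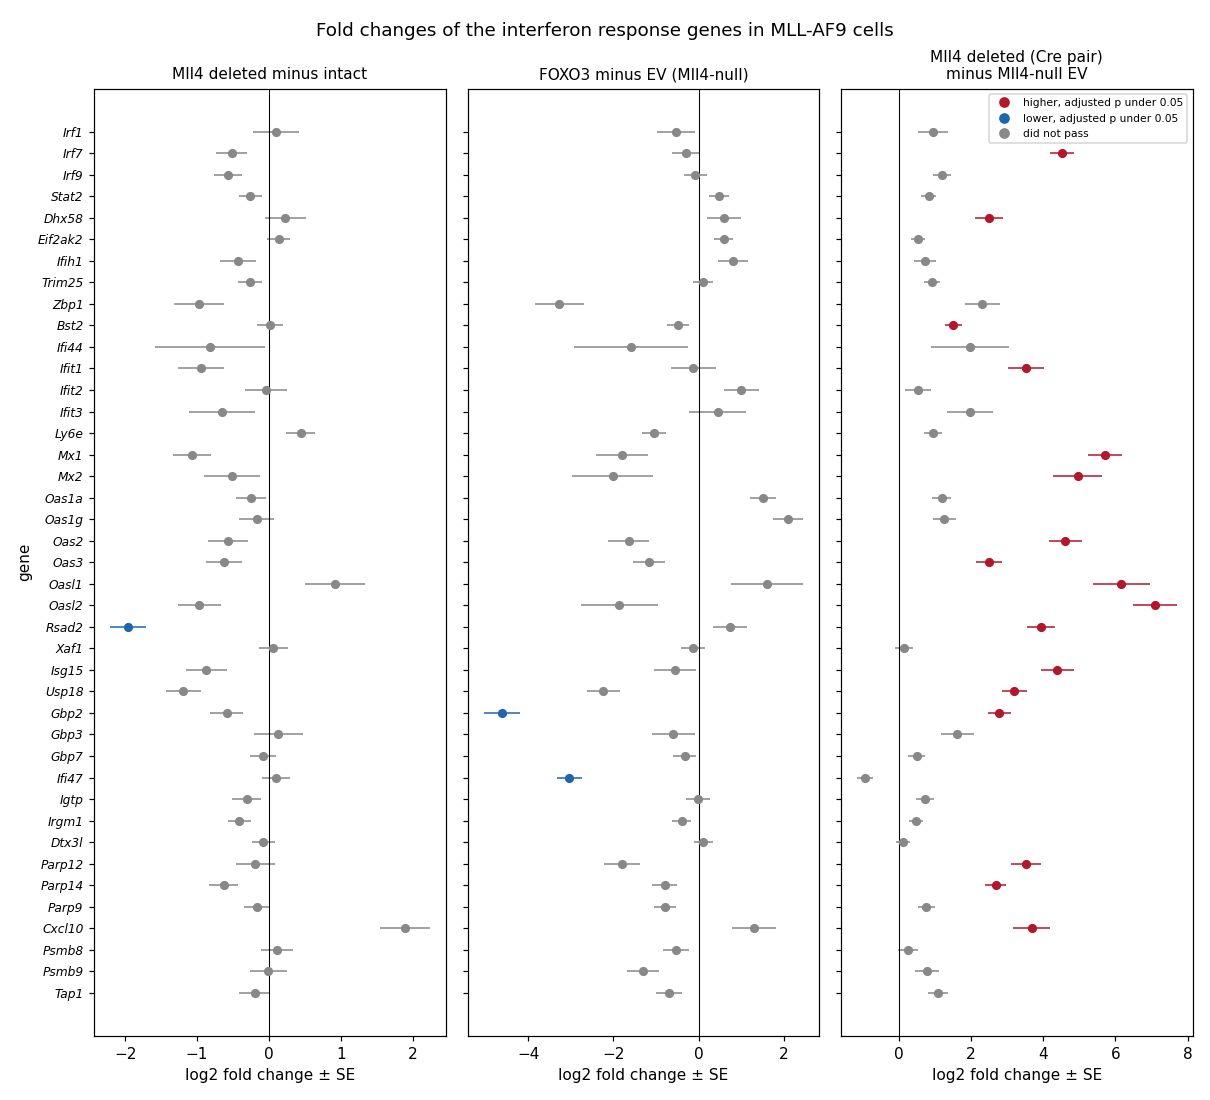
Log2 fold change ± SE of each of the 41 genes (rows) in the 3 tested comparisons, taken as each panel's title says, with red for higher and blue for lower at an adjusted p under 0.05 and grey for genes that did not pass; Mx2 and Oasl1 in the last panel rest on 3 and 2 counts in the EV library. The panel of Mll4 deleted minus intact has 1 coloured gene, that of FOXO3 minus EV has 2, and that of the transformations has 17, all to the right of 0.

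All 17 calls ended without intact library 1 or 2, when edgeR called 0 genes of all those tested (3330 and 3327 at an unadjusted p under 0.05). They also ended with the block that paired libraries of the same sex (adjusted p = 0.0558 to 0.0917), while DESeq2 with every library called 27 of the 41 higher and 1 lower (12.4% and 6.01% of all genes, 18.4% in all). With the FOXO3 libraries kept as 2, 28 rose and Ifi47 fell, where 21.7% of all genes passed, 12.2% higher and 9.54% lower. The first and second transformation also differ in the viruses, the selection and the way Mll4 was deleted, which cannot be told apart here. Sex differs in part as well. In the FOXO3 and EV libraries Xist stood at 1.01 CPM or less and Ddx3y at 92.2 CPM or more. Cre library 1 had Xist at 771 CPM and Ddx3y at 0.161 CPM, and Cre library 2 had 2.21 and 41.3 CPM in the same order. The monocyte and macrophage markers summed to 6556 and 12766 CPM in the Cre libraries, against 941 CPM in the EV library, and 8 of the 10 rose. The 5 erythroid markers summed to 2.68 and 1.64 CPM in the Cre libraries, against 24.6 CPM in the EV library, with Klf1 lower by the test (−3.86 ± 0.48, adjusted p = 0.0229). The 5 markers of plasmacytoid dendritic cells, which make much interferon, summed to 133 and 121 CPM in the Cre libraries, against 64.2 CPM in the EV library. Most of that was Bst2, which is also 1 of the 41 genes and rose (1.52 ± 0.24, adjusted p = 0.0335). Siglech of the same list was at 0.952 and 0.189 CPM in the Cre libraries, against 0.343 CPM in the EV library. The part of these markers in the difference was not tested.

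Of other genes of the pathway, 84 of 92 were tested, in lists of receptors, kinases and STATs, of sensing and of other induced genes. The 7 interferon genes looked up were at or near 0 and were not tested. For Mll4 loss 0 of 84 rose and 1 fell (21 at an unadjusted p under 0.05). That was Slfn1, a regulator of T cell growth, at 8.85 and 9.93 CPM in the Cre libraries, against 22.8 and 24.3 CPM in the intact ones (−1.54 ± 0.22, adjusted p = 0.0484). For FOXO3 0 rose and 1 fell (22 at an unadjusted p under 0.05). That was Lgals3bp, a secreted glycoprotein, at 5.39 and 4.52 CPM in the FOXO3 libraries, against 50.5 CPM in the EV library (−3.37 ± 0.29, adjusted p = 0.0281). Both calls are thus 1 gene of a long list, close to the share over all genes.

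Between the transformations 29 of the 84 rose in the Cre libraries and 0 fell, where 5.90% of all genes rose and 1.07% fell. Ly6a, which encodes Sca1, stood at 248.9 and 257.7 CPM in the Cre libraries, against 16.5 CPM in the EV library (4.07 ± 0.25, adjusted p = 0.0148). Socs3, an inhibitor of JAK signalling, stood at 163 and 119 CPM in the Cre libraries, against 6.55 CPM in the EV library (4.55 ± 0.30, adjusted p = 0.0148). Slfn1 (4.31 ± 0.35, adjusted p = 0.0155) and Ifi203 (5.15 ± 0.47, adjusted p = 0.0159) followed. The 4 of 15 receptor, kinase and STAT genes that rose were Ifngr2, Irf5, Irf8 and Socs3, and the 4 of 13 sensing genes were Tlr3, Tlr7, Tlr9 and Rigi, named after their values were seen.

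Of the 4 receptor genes, 1 passed in 1 comparison. Ifngr2, a chain of the interferon gamma receptor, rose between the transformations (1.07 ± 0.19, adjusted p = 0.0405), with 85.3 and 97.0 CPM in the Cre libraries, against 47.6 CPM in the EV library. Ifnar1 (1.26 ± 0.49, adjusted p = 0.176), Ifnar2 (0.68 ± 0.26, adjusted p = 0.165) and Ifngr1 (1.03 ± 0.24, adjusted p = 0.068) did not pass there. For Mll4 loss and FOXO3 none of the 4 receptor genes passed, with adjusted p values of 0.209 to 0.918.

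In LSK cells there was 1 library per genotype, so no test was made and values compare these libraries. The 2 libraries averaged 1 CPM or more for 36 of the 41 genes, of which 8 were at least 2-fold higher and 16 at least 2-fold lower in the library labelled Mll4 deleted. Of all 10174 genes at that level, 63.0% lay past 2-fold, 28.1% higher and 34.9% lower, so the count of the interferon response genes was close to that of any genes. Their median log2 ratio was −0.61, where that of all genes was −0.15. Ifit2, Oasl1, Mx1, Mx2 and Cxcl10 had 0 counts in both libraries, where a count of 0 allows up to 3 counts per library. The libraries held RNA of about 50 cells copied by PCR, and Kmt2d goes against the label, so each direction rests on the label.

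Among genes that averaged at least 10 CPM, the lowest ratios spanned several roles. Zbp1 had 1 count in the library labelled Mll4 deleted, against 1626 in the wild type one, a log2 ratio of −10.63 (95% exact binomial interval −15.93 to −8.15). Rsad2 stood at 0.309 CPM in the library labelled Mll4 deleted and 21.2 CPM in the wild type one, a log2 ratio of −6.10 (−7.32 to −5.11). Usp18 stood at 0.502 CPM in the library labelled Mll4 deleted and 23.5 CPM in the wild type one, a log2 ratio of −5.55 (−6.47 to −4.77). In each of these the library labelled Mll4 deleted held 13 counts or fewer. Ifi47 stood at 23.1 CPM in the library labelled Mll4 deleted and 186 CPM in the wild type one (−3.01, −3.14 to −2.89). Bst2 stood at 3.44 CPM in the library labelled Mll4 deleted and 23.3 CPM in the wild type one (−2.76, −3.10 to −2.44).

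Among genes at the same level the highest ratios also spanned several roles. Oasl2 stood at 101 CPM in the library labelled Mll4 deleted and 5.53 CPM in the wild type one, a log2 ratio of 4.19 (3.95 to 4.44). Isg15 stood at 37.9 CPM in the library labelled Mll4 deleted and 8.76 CPM in the wild type one, a log2 ratio of 2.11 (1.91 to 2.33). Tap1 stood at 296 CPM in the library labelled Mll4 deleted and 94.8 CPM in the wild type one, a log2 ratio of 1.64 (1.58 to 1.71). Isg15 and its protease Usp18 thus lay on opposite sides. The near copies Oas1g (1.47, 1.32 to 1.61) and Oas1a (1.13, 1.01 to 1.25) were both higher in the library labelled Mll4 deleted. Below an average of 10 CPM, Parp12 had 81 counts in the library labelled Mll4 deleted, against 2 for wild type, a log2 ratio of 5.38 (3.48 to 8.45).

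The regulators were spread as widely. Irf7 stood at 7.11 CPM in the library labelled Mll4 deleted and 47.3 CPM in the wild type one, a log2 ratio of −2.73 (−2.96 to −2.51). Stat2 stood at 11.9 CPM in the library labelled Mll4 deleted and 0.263 CPM in the wild type one, where it had 7 counts, a log2 ratio of 5.49 (4.43 to 6.82). Irf9 (0.22, 0.09 to 0.36) and Irf1 (−0.11, −0.19 to −0.02) were near equal. Of the receptors, Ifngr2 stood at 0.502 CPM in the library labelled Mll4 deleted and 25.7 CPM in the wild type one, and Ifnar2 at 139 and 39.6 CPM in the same order. Of the LSK markers, Ly6a (Sca1) stood at 28.2 CPM in the library labelled Mll4 deleted and 80.2 CPM in the wild type one and Kit at 101.5 and 46.8 CPM in the same order. Cd34 and Flt3 ran from 212 to 298 CPM over both, and the monocyte and macrophage markers summed to 44.3 CPM in the library labelled Mll4 deleted and 14.8 CPM in the wild type one, with 6 and 7 of 10 at 0.

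**Figure D4:**
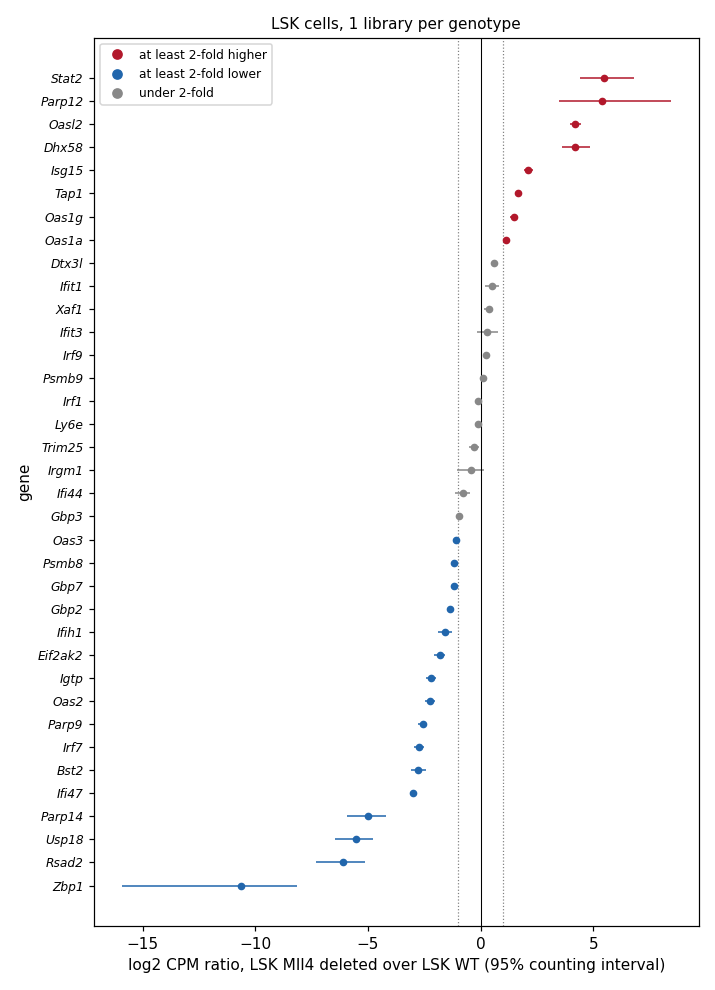
Log2 ratio of CPM of the 36 genes that averaged 1 CPM or more in LSK cells, the library labelled Mll4 deleted over the wild type one, with the 95% exact binomial interval as a line; dotted lines mark 2-fold. The 8 red genes lie at least 2-fold higher and the 16 blue ones at least 2-fold lower in the library labelled Mll4 deleted.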

How the data were processed

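RNA was sequenced from 6 samples of mouse cells, with 9 count files. The authors deposited raw read counts, whole numbers for each NCBI gene number, and 23185 of the 23282 numbers were given names from RefSeq's table of GRCm38.p6. The submitters' processing notes name TopHat2 2.0.11, Bowtie 0.12.8 and the build mm9. How reads were counted, with which annotation and with or without strand, is not given in the sources used here. Near-identical or overlapping genes may therefore share reads, which concerns Oas1a with Oas1g, Ifit3 with Ifit3b, Igtp with its relatives and the overlapping pairs Parp9 and Dtx3l, Ifit1 and Ifit1bl1, Stat2 and Apof, Eif2ak2 and Gm6548, and Cxcl10 and Art3. Promoter sequences come from RefSeq on GRCm38.p6 and were matched by gene, not by coordinates of mm9.

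Tests used the quasi-likelihood method of edgeR 4.0.16 (R 4.3.3) after TMM scaling and the filter that edgeR applies by default. The 6 columns were the 2 Cre libraries, the 2 intact ones, the sum of the FOXO3 pair and the EV library, in 1 fit of 4 groups with 3 comparisons. P-values were adjusted by Benjamini-Hochberg over 14990 genes, with a threshold of 0.05. A ± stands for the SE beside a log2 fold change and for the SD beside a CPM. LSK libraries were compared by their CPM ratio with an exact binomial (Clopper-Pearson) 95% interval. DESeq2 1.42.0 served as an alternative, beside other scalings, filters, a 2-fold threshold, libraries left out and blocks, and the test was checked on simulated data.

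The 41 genes, the pathway and marker lists and the tests were chosen with earlier results of these data known. Values are given in full for the 4 regulators, for the 8 genes with the smallest p per comparison, for the 5 highest and 5 lowest LSK ratios with a mean of 10 CPM or more, and for genes called with the FOXO3 pair summed or kept apart. Of the pathway lists, 4 receptor genes and the called genes (the 4 with the smallest p where over 5 were called) are named, and 1 further gene that the rule names is not reported here. Rnf213 was not analysed here, as its symbol was not matched.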

Additional observations from a re-analysis of the deposited data

Results flagged for a closer look

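For 3 of the 41 genes, each past 2-fold in LSK cells, the libraries labelled Mll4 deleted moved the other way in MLL-AF9 cells. There the Cre and intact libraries did not overlap after TMM scaling. Of all genes, 63.0% lay past 2-fold in LSK cells at a mean of 1 CPM or more. In MLL-AF9 cells 25.8% of all genes had both Cre libraries below both intact ones and 31.1% had them above. Other genes of the 41 met both conditions but moved the same way in the 2 cell types. Among them, Zbp1 had −10.63 in LSK cells and −0.97 in MLL-AF9 cells, Rsad2 −6.10 and −1.96, and Usp18 −5.55 and −1.19. How many of all genes met both conditions, in either way, was not counted, and the difference between the cell types was not tested. Isg15 had a log2 ratio of 2.11 in LSK cells (labelled Mll4 deleted over wild type) and a log2 fold change of −0.87 in MLL-AF9 cells (Cre minus intact). Stat2 had 5.49 in LSK cells and −0.26 in MLL-AF9 cells, where its plain CPM values overlapped. Oasl2 had 4.19 in LSK cells and −0.97 in MLL-AF9 cells. Isg15, Stat2 and Oasl2 did not pass the test in MLL-AF9 cells, and the LSK values come from 1 library per genotype.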

How the results depend on the processing

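The numbers of calls depended on the settings, and 0 of the 41 genes had a called value that reversed. Over the 41 genes and all settings, 669 of 690 values for Mll4 loss, 610 of 649 for FOXO3 and 556 of 649 between the transformations kept their side of the threshold. For Mll4 loss, where 1 of the 41 and 312 of all genes passed, the numbers were 7 and 2237 with the FOXO3 pair kept as 2 libraries, 0 and 34 with RLE scaling, 2 and 1141 with total-count scaling, 2 and 659 with no filter, and 5 and 2079 by DESeq2. In the 4 compared libraries alone edgeR called 0 of the 41 and 0 genes in all, with 14 and 3498 at an unadjusted p under 0.05. Leaving out 1 library gave 0 to 3 of the 41 and 0 to 1074 of all genes. For FOXO3, where 2 and 178 passed, the numbers were 10 and 1069 with the pair kept as 2, 4 and 375 with no filter, 9 and 1055 by DESeq2, and 0 to 8 and 0 to 1159 with 1 library left out. Between the transformations, where 17 and 1045 passed, they were 29 and 3260 with the pair kept as 2, 28 and 2764 by DESeq2, and 0 to 27 and 0 to 2613 with 1 library left out. Each 0 came from leaving out an intact library, when edgeR called 0 genes in all 3 comparisons, with 1548 to 3330 at an unadjusted p under 0.05. With a mean of at least 5 CPM, Cxcl10, Ifit1, Mx2 and Oasl1 were not tested and the other 13 of the 17 kept their call. The cause of these changes was not tested. In LSK cells 8 genes were higher and 16 lower, also with TMM scaling, against 5 and 14 at a mean of at least 10 CPM and 9 and 18 past 1.5-fold.

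The numbers in the file names were not taken to pair the libraries, since there are 2 pairs, with a correlation of deviations of 0.179. With these numbers as a replicate block, 3 of the 41 and 1408 of all genes passed for Mll4 loss, 7 and 762 for FOXO3, and 21 and 1500 between the transformations. With the block crossed to pair libraries of the same sex, edgeR called 0 of the 41 and 0 of all genes in the 3 comparisons, with 7, 11 and 28 of the 41 at an unadjusted p under 0.05.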
